A study of Mus musculus with 12 samples.

Results

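Sox17, Gata4, Gata6 and Foxa1 are transcription factor genes of the endoderm, the germ layer and extraembryonic lineage that give rise to the gut lining and to the yolk sac. They were followed here through every probe to which the platform annotation assigns one of these symbols and no other. There was 1 such probe a gene, so 4 of the 13840 genes that have a probe of their own among the 33012 probes of an array, and all 4 were tested. A probe was counted as detected on an array at a deposited signal-to-noise score of 3 or more.

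The 12 arrays fell into 4 groups of 3. Cultured epiblast (cEpi) was dissected from embryos of E5.5 to E7.5 and dissociated. Its culture is not described in the labels. ES-like cells reprogrammed from such epiblast (rEpiES) were sampled at passage 4 and at passage 24. They had been grown in medium with 20% fetal bovine serum and LIF at 1000 U/ml on mitomycin-treated fibroblast feeders, and came from colonies in which GFP-positive cells appeared after 14 to 35 days. Mouse embryonic stem cells (ES) formed the last group, with no line or culture named. The labels give embryos of E5.5 to E7.5 for the ES arrays too. Per the labels, the mothers of the embryos were of 129/sv or ROSA 129/Sv background, and the fathers carried the Oct4-△PE-EGFP transgene, a reporter of the Oct4 gene. Separate cultures are named for no group, so the p-values measure the spread between arrays, which may be technical.

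In early embryos, Gata6 and then Gata4 and Sox17 are switched on in the primitive endoderm, next to the pluripotent epiblast. Sox17 acts a second time when definitive endoderm forms during gastrulation, and Foxa1 and its relative Foxa2 open chromatin at endoderm and gut enhancers as pioneer factors. Pluripotent ES cells keep these genes low, and forced expression of Gata6, Gata4 or Sox17 moves mouse ES cells towards endoderm.

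All 4 factors were highest in cEpi, where each was detected on all 3 arrays and no array of another group reached the lowest cEpi array. Below cEpi, the means of Sox17 and Gata6 both ran from ES through passage 4 down to passage 24, but with different steps. Gata4 and Foxa1 had other orders. Sox17 was lowest at passage 24, Gata4 was detected after reprogramming at passage 4 only, Gata6 was lower in both rEpiES groups than in ES, and Foxa1 was detected in no group but cEpi. The levels are the authors' quantile-normalised log2 values, and a difference of 1 on this scale is a doubling. Levels of different probes are not compared with each other.

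**Figure D1:**
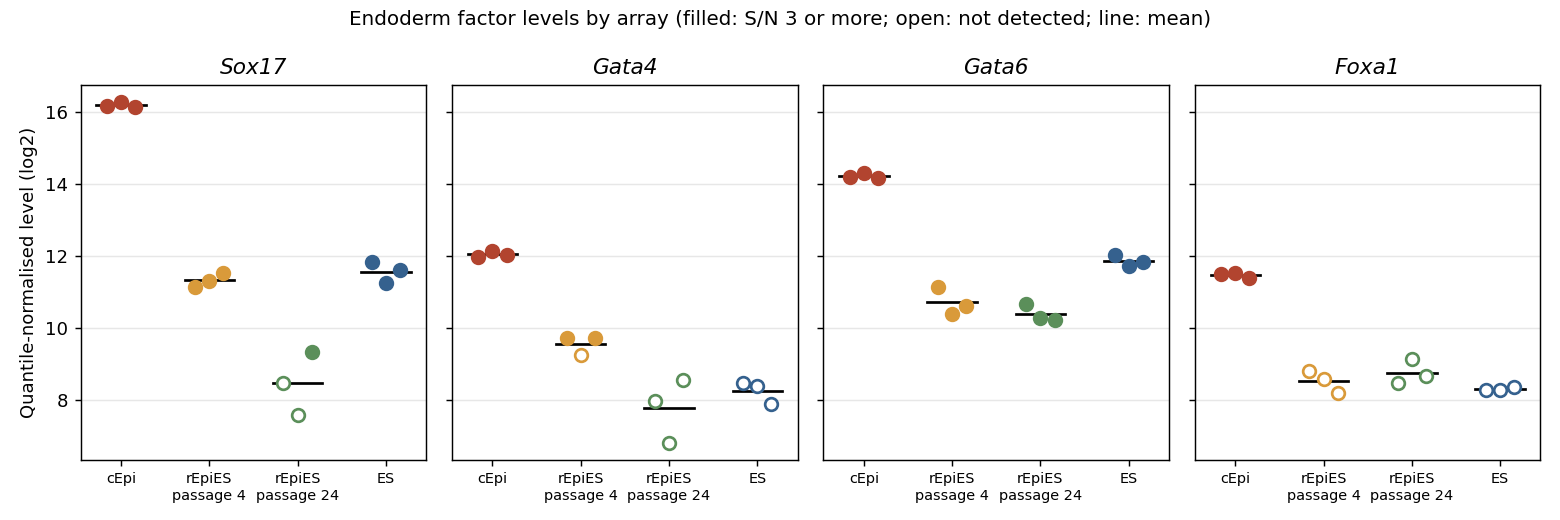
Quantile-normalised log2 level (vertical axis) of the 4 endoderm factors on each of 12 arrays, by group (horizontal axis). Filled circles are arrays with a signal-to-noise score of 3 or more, open circles are arrays below it, and lines are group means; Sox17 lies between 16.13 and 16.28 on the cEpi arrays and between 7.56 and 9.32 on the passage 24 arrays.

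Sox17, an HMG-box factor of primitive and definitive endoderm (chromosome 1), measured 16.16, 16.28 and 16.13 in cEpi, 11.14, 11.30 and 11.52 in rEpiES at passage 4, 8.47, 7.56 and 9.32 in rEpiES at passage 24, and 11.82, 11.25 and 11.62 in ES. The cEpi arrays stood far above all others, passage 4 and ES overlapped, and passage 24 lay below both. At passage 24 only the array at 9.32 was detected. The mean was 16.19 ± 0.08 in cEpi, 11.32 ± 0.19 at passage 4, 8.45 ± 0.88 at passage 24 and 11.56 ± 0.29 in ES (SD, n = 3 each).

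Gata4, a zinc finger factor of primitive endoderm, foregut and heart (chromosome 14), measured 11.97, 12.13 and 12.02 in cEpi, 9.71, 9.23 and 9.71 at passage 4, 7.97, 6.80 and 8.54 at passage 24, and 8.45, 8.37 and 7.87 in ES. Passage 4 lay between cEpi and the other groups without overlap, and passage 24 and ES overlapped. The probe was detected on all cEpi arrays, on 2 of 3 at passage 4, and on none at passage 24 or in ES. The mean was 12.04 ± 0.08 in cEpi, 9.55 ± 0.28 at passage 4, 7.77 ± 0.89 at passage 24 and 8.23 ± 0.32 in ES (SD, n = 3 each).

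Gata6, the zinc finger factor that starts the primitive endoderm programme (chromosome 18), was detected on all 12 arrays. It measured 14.18, 14.29 and 14.17 in cEpi, 11.14, 10.38 and 10.60 at passage 4, 10.66, 10.27 and 10.22 at passage 24, and 12.01, 11.71 and 11.83 in ES. The rEpiES groups overlapped with each other and lay below every ES array. The mean was 14.21 ± 0.07 in cEpi, 10.71 ± 0.39 at passage 4, 10.39 ± 0.24 at passage 24 and 11.85 ± 0.15 in ES (SD, n = 3 each).

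Foxa1, a forkhead factor of endoderm and its organs (chromosome 12), measured 11.49, 11.52 and 11.37 in cEpi, 8.79, 8.56 and 8.18 at passage 4, 8.45, 9.13 and 8.67 at passage 24, and 8.26, 8.26 and 8.36 in ES. It was detected on the 3 cEpi arrays and on none of the 9 others, so the order of the 3 lower groups is one of signals below the detection score. The mean was 11.46 ± 0.08 in cEpi, 8.51 ± 0.31 at passage 4, 8.75 ± 0.35 at passage 24 and 8.29 ± 0.06 in ES (SD, n = 3 each).

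The promoter of Foxa1 is shown because it is the member with an upstream window in the RefSeq table used (GRCm38.p6), and because forkhead, GATA and SOX factors bind short motifs that can be looked for in it. The 250 bases just before the annotated start lie at chr12:57546112-57546361 on the minus strand, and capitals mark a forkhead match.
Foxa1: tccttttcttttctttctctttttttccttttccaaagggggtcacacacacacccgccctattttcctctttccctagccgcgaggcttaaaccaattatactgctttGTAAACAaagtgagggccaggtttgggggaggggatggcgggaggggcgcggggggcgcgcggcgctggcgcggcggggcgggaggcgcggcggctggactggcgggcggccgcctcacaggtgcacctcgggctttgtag
The motifs searched on both strands were TGTTTAC (forkhead), AGATAA with T also allowed as its first letter and G as its last (GATA), and ACAAT (SOX); none of these contains another. The window holds 1 forkhead match, on the reverse strand with its first base at -141 from the start, and no GATA or SOX match. A forkhead match was in 3.17% of all 32851 windows of this length. A match of letters does not show that a factor binds there.

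The tests came from 1 limma fit over the 12 arrays and 15235 probes, with Benjamini-Hochberg adjustment over all of them and a call at an adjusted p under 0.05. A probe was tested if it was detected on every array of some group. Gata4 and Foxa1 passed this filter through cEpi only, where they were highest, so the filter favoured a rise there. Genes of the lists below can have passed in the same way, which also favours their counts higher in cEpi. For a group in which a probe was never detected, a fold is given with the words at least. It was computed by setting each array of that group to the lowest detected signal of any probe on the array, unless the probe itself read higher. Where only some arrays of a group detected a probe, the undetected ones are set so and the number detected is given. That floor is not the probe's own detection limit, as Gata4 was still undetected at 9.23 on 1 passage 4 array. Such folds are therefore not strict lower limits, and often equal the measured ones. In these bulk samples, fewer cells that express a gene and less RNA per cell cannot be told apart.

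In cEpi against ES, all 4 factors rose, beside 36.6% of all tested probes called higher and 29.6% called lower (66.2% in either direction). Sox17 rose by 4.63 ± 0.36 (log2 change ± SE), 24.7-fold (adjusted p = 1.97e-06, limma), the change of rank 48 by size among the 15235 probes. Gata4 rose by 3.81 ± 0.37, at least 14-fold (adjusted p = 1.01e-05), and Foxa1 by 3.17 ± 0.18, at least 8.98-fold (adjusted p = 2.67e-07). Gata6, which ES cells also showed at a detected level, rose by 2.36 ± 0.19, 5.14-fold (adjusted p = 2.39e-06). The cEpi and ES files have different column layouts, so layout and group cannot be told apart in this comparison.

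In rEpiES at passage 4 against cEpi, whose files share a layout, all 4 factors fell, beside 28.1% of probes called lower and 28.2% called higher (56.3% in either direction). Sox17 fell 29.2-fold (-4.87 ± 0.36, adjusted p = 2.18e-06), the change of rank 8 by size. Gata6 fell 11.4-fold (-3.51 ± 0.19, adjusted p = 2.59e-07), Gata4 at least 5.62-fold (-2.49 ± 0.37, adjusted p = 0.000276, 2 of 3 passage 4 arrays detected) and Foxa1 at least 7.7-fold (-2.94 ± 0.18, adjusted p = 7.02e-07).

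In rEpiES at passage 24 against cEpi all 4 were again lower, beside 32.9% of probes called lower and 33.3% called higher (66.2% in either direction). Sox17 fell at least 208-fold (-7.74 ± 0.36, adjusted p = 4.46e-08), with 1 of 3 passage 24 arrays detected. Gata4 fell at least 15.8-fold (-4.27 ± 0.37, adjusted p = 3.99e-06), Gata6 14.2-fold (-3.83 ± 0.19, adjusted p = 6.69e-08) and Foxa1 at least 6.54-fold (-2.71 ± 0.18, adjusted p = 6.49e-07). The cEpi arrays are shared by these comparisons.

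**Figure D2:**
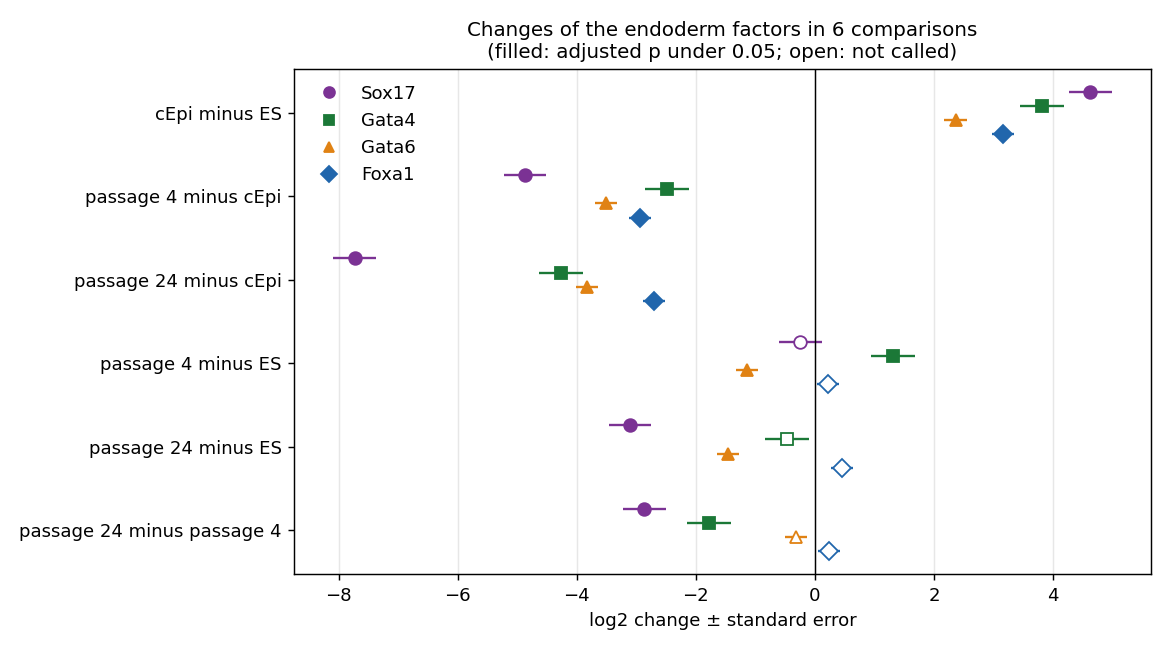
Log2 change with its standard error (horizontal axis) of Sox17, Gata4, Gata6 and Foxa1 in the 6 comparisons (vertical axis), with filled symbols for an adjusted p under 0.05 and open symbols otherwise. The comparisons with cEpi carry the largest changes, up to -7.74 for Sox17 at passage 24, and those among rEpiES and ES divide the 4 genes.

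Set against ES, the reprogrammed cells differed from gene to gene. At passage 4, 1 factor was higher and 1 was lower, beside 29.3% of probes called higher and 26% called lower (55.3% in either direction). Gata4 rose by 1.32 ± 0.37, at least 2.49-fold (adjusted p = 0.0128, 2 of 3 passage 4 arrays detected). This call was lost without further normalisation of the deposited intensities (adjusted p = 0.0537) and with array quality weights (adjusted p = 0.0796). Gata6 fell 2.21-fold (-1.14 ± 0.19, adjusted p = 0.000588). Sox17 differed by -0.24 ± 0.36 (adjusted p = 0.598), which turned to 0.13 without further normalisation and 0.20 with median scaling, and Foxa1 was detected in neither group.

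At passage 24, whose files share the layout of ES, 2 factors were lower than in ES, beside 29% of probes called lower and 30.6% called higher (59.7% in either direction). Sox17 fell at least 8.42-fold (-3.11 ± 0.36, adjusted p = 4.4e-05, 1 of 3 passage 24 arrays detected) and Gata6 2.76-fold (-1.46 ± 0.19, adjusted p = 9.24e-05). Gata4 and Foxa1 were detected on no array of either group. The fitted difference of Foxa1, 0.46 ± 0.18 (adjusted p = 0.0536), was called when replicate 1 or 3 of passage 4 or replicate 1 of passage 24 was left out, with the lowest adjusted p at 0.0217, and it is a difference between signals below the detection score.

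Between the reprogrammed groups, 2 factors were lower at passage 24 than at passage 4, beside 18.9% of probes called lower and 17.2% called higher (36.1% in either direction). Sox17 fell at least 7.11-fold (-2.87 ± 0.36, adjusted p = 0.000222, 1 of 3 passage 24 arrays detected) and Gata4 at least 2.81-fold (-1.78 ± 0.37, adjusted p = 0.0044). Gata6 differed by -0.32 ± 0.19 (adjusted p = 0.219). The order of the levels was therefore cEpi, then ES and passage 4 without a called difference, then passage 24 for Sox17, and cEpi, ES, then both passages without a called difference for Gata6. For Gata4 it was cEpi, passage 4, then ES and passage 24, both undetected.

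Among the passage 24 arrays Sox17 and Gata4 spread most, with SDs of 0.88 and 0.89, and both were highest on replicate 3 and lowest on replicate 2. Over the 12 arrays, Pearson's r between members ran from 0.81 for Sox17 with Foxa1 to 0.93 for Sox17 with Gata4 and for Sox17 with Gata6. After the group means were taken off, r was 0.83 for Sox17 with Gata4, 0.24 for Gata4 with Gata6, 0.06 for Gata6 with Foxa1, -0.04 for Sox17 with Gata6, -0.58 for Sox17 with Foxa1 and -0.59 for Gata4 with Foxa1. At passage 24, where Sox17 and Gata4 spread most, Sox17 was detected on 1 of 3 arrays and Gata4 on 0 of 3. Foxa1 was detected on no array outside cEpi, so its coefficients rest mostly on signals below the detection score. These coefficients describe arrays that share 4 groups and, within a group, possibly a culture.

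The genes whose pattern over the 12 arrays was most like that of a member were sought among 8811 other tested genes. For Sox17 they were Shroom3 (r = 0.9947), Irx3 (0.9938), Trp53inp2, Bag3 and 2700081O15Rik. Irx3, a homeobox factor, averaged 15.20 in cEpi, 11.74 at passage 4, 9.77 at passage 24 and 12.12 in ES, the order that Sox17 had. For Gata4 they were Srp14 (r = 0.9784), Gskip, Tgfb3, Prelp and Hdac5, of which Tgfb3, a TGF-beta ligand, averaged 12.50, 10.61, 9.08 and 9.45 in the same groups. Zfp386 (r = 0.9901), Cd302, Acaa1a, Snn and Cebpb were nearest to Gata6, and Hdac6 (r = 0.9890), Dennd1a, Oat, Ceacam1 and Pimreg to Foxa1. Each coefficient rests on 12 arrays in 4 groups, and for Foxa1 the signals outside cEpi were below the detection score.

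The relatives of the members in the SOX, GATA and FOXA families and their cofactors of the FOG family had 10 named probes, of which 6 were tested. In cEpi against ES, 5 were higher and 1 was not called, with a median change of 2.08 beside 0.15 for all tested probes. Over all tested probes, 36.6% were called higher and 29.6% lower in this comparison, the shares to set beside this and each list below. Gata1, best known from red blood cell formation, rose at least 11.8-fold (3.87 ± 0.36, 1 of 3 ES arrays detected), Zfpm1, the gene of the GATA cofactor FOG1, by 3.18 ± 0.14, Gata3, a GATA factor of trophoblast and other lineages, by 2.61 ± 0.40, and Sox18, a sister of Sox17 in vessels, at least 2.77-fold (1.55 ± 0.47, detected on 2 of 3 cEpi arrays and 0 of 3 ES arrays). The Sox18 call was lost without ES replicate 2 or cEpi replicate 3. Sox7, the third gene of this SOX group, differed by 0.29 ± 0.44. Gata2, Gata5, Foxa3 and Zfpm2 were not tested, and Gata2 and Gata5 were detected on no array.

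Foxa2, the pioneer factor related to Foxa1, had its group means in the order of Sox17 and Gata6, not in that of Foxa1. It averaged 15.06 ± 0.05 in cEpi, 11.49 ± 0.10 at passage 4, 8.96 ± 0.85 at passage 24 and 14.20 ± 0.11 in ES (SD, n = 3 each), and was detected on all ES arrays. It rose by only 0.86 ± 0.32 in cEpi against ES (adjusted p = 0.0386). This call was lost with any array of cEpi, passage 4 or ES left out, up to an adjusted p of 0.105 with array quality weights. The SE comes from 1 spread shared by all 4 groups, which includes the wide passage 24 group. The cEpi and ES arrays did not overlap, with the lowest cEpi array at 15.01 and the highest ES array at 14.33. At passage 24 against ES, Foxa2 fell at least 37.8-fold (-5.24 ± 0.32, adjusted p = 6.83e-07, 1 of 3 passage 24 arrays detected). It was lower at passage 4 against ES too (-2.71). Of the 6 relatives tested, 5 were lower and 1 was not called at passage 4 against cEpi, and 4 were lower and 2 not called at passage 24 against cEpi. Against ES, 1 was higher and 1 lower at passage 4, and 2 were higher and 2 lower at passage 24. Over all tested probes, 28.2% were called higher and 28.1% lower at passage 4 against cEpi, and 33.3% and 32.9% at passage 24. The same shares against ES were 29.3% and 26% at passage 4, and 30.6% and 29% at passage 24. They also apply to the lists below.

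Other endoderm transcription factors had 8 tested genes, of which 6 were higher and 2 lower in cEpi against ES (median change 0.98). Hhex, a homeobox factor of anterior endoderm and liver, rose at least 17.4-fold (4.12 ± 0.15) and Lhx1, a LIM homeobox factor of anterior mesendoderm, rose by 2.26 ± 0.38. Prdm1 rose by 1.89 ± 0.18 and Eomes, a T-box factor upstream of definitive endoderm, by 1.40 ± 0.12. Klf5 was lower (-1.30 ± 0.09), as was Mixl1 (-0.68 ± 0.14), whose call was lost under both other scalings. Of the 8, 7 were lower and 1 was higher at each passage against cEpi. At passage 24 against ES, 6 were lower and 2 were not called, among them Mixl1 (-5.22 ± 0.14) and Lhx1 (at least 24.5-fold lower). Both other scalings gave 4 lower, 3 not called and 1 higher in that comparison, with the calls of Otx2 and Klf5 lost.

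Primitive and parietal endoderm products, mostly basement membrane genes, had 12 tested members, of which 10 were higher, 1 lower and 1 not called in cEpi against ES (median change 1.49). Serpinh1, a collagen chaperone, rose by 3.40 ± 0.17, Plat, a protease of parietal endoderm, by 3.35 ± 0.20, Dab2, an endocytic adaptor that marks primitive endoderm, at least 6.49-fold, and Col4a1, a basement membrane collagen, by 2.39 ± 0.12. The basement membrane gene Nid2 was lower (-1.39 ± 0.08). Lama1, a laminin chain of this lineage, was detected on no array, and Pdgfra, a receptor gene of primitive endoderm, was not tested. At passage 24 against cEpi, 10 of the 12 were lower and 2 higher. Feeder fibroblast genes were higher in cEpi too, as given below, and the part of fibroblasts in this list was not tested.

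Visceral endoderm products went both ways in cEpi against ES, not far from the 36.6% called higher and 29.6% called lower over all tested probes. Of 11 tested, 5 were higher, 4 lower and 2 not called in cEpi against ES (median change 0.44), and each passage against cEpi also gave 5 higher, 4 lower and 2 not called. Under both other scalings 7 were higher and 3 lower in cEpi against ES. Rbp4, the serum retinol carrier, rose at least 46.2-fold (5.54 ± 0.31), the zinc and manganese transporter gene Slc39a8 by 3.37 ± 0.15 and the protease inhibitor gene Spink1 by 2.92 ± 0.21. The transferrin gene Trf (-3.24 ± 0.42) and the apolipoprotein gene Apoa2 (-3.07 ± 0.21) were lower, each detected on 1 of 3 cEpi arrays. Afp and Ttr, the classic visceral endoderm transcripts, were detected on all 3 arrays of no group and so were not tested, and Apoa1, Fga and Fgb were detected on no array.

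Definitive endoderm and gut products had 15 tested members, of which 10 were higher, 3 lower and 2 not called in cEpi against ES (median change 2.73). Under both other scalings 10 were higher, 1 lower and 4 not called, and the epithelial adhesion genes Epcam and Cdh1 lost their calls and changed sign. Cer1, a secreted Nodal and BMP antagonist of anterior endoderm, averaged 17.19 in cEpi and 10.60 in ES and rose at least 96.7-fold (6.60 ± 0.47). Pyy, a gut peptide hormone gene, rose at least 60.7-fold (5.92 ± 0.32), Cxcr4, a chemokine receptor that marks definitive endoderm, at least 29.7-fold (4.89 ± 0.35), Sfrp5, a WNT antagonist of foregut, at least 20.8-fold (4.88 ± 0.46), and the incretin gene Gip at least 22.9-fold. Cer1, Cxcr4 and Sfrp5 were each detected on 1 of 3 ES arrays. Pyy, Gip, Cxcr4, Sfrp5, Frzb and Vil1 passed the detection filter through cEpi only. Shh was detected on no array. At passage 24 against cEpi, 10 were lower and 2 higher, with Cer1 at least 445-fold lower.

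**Figure D3:**
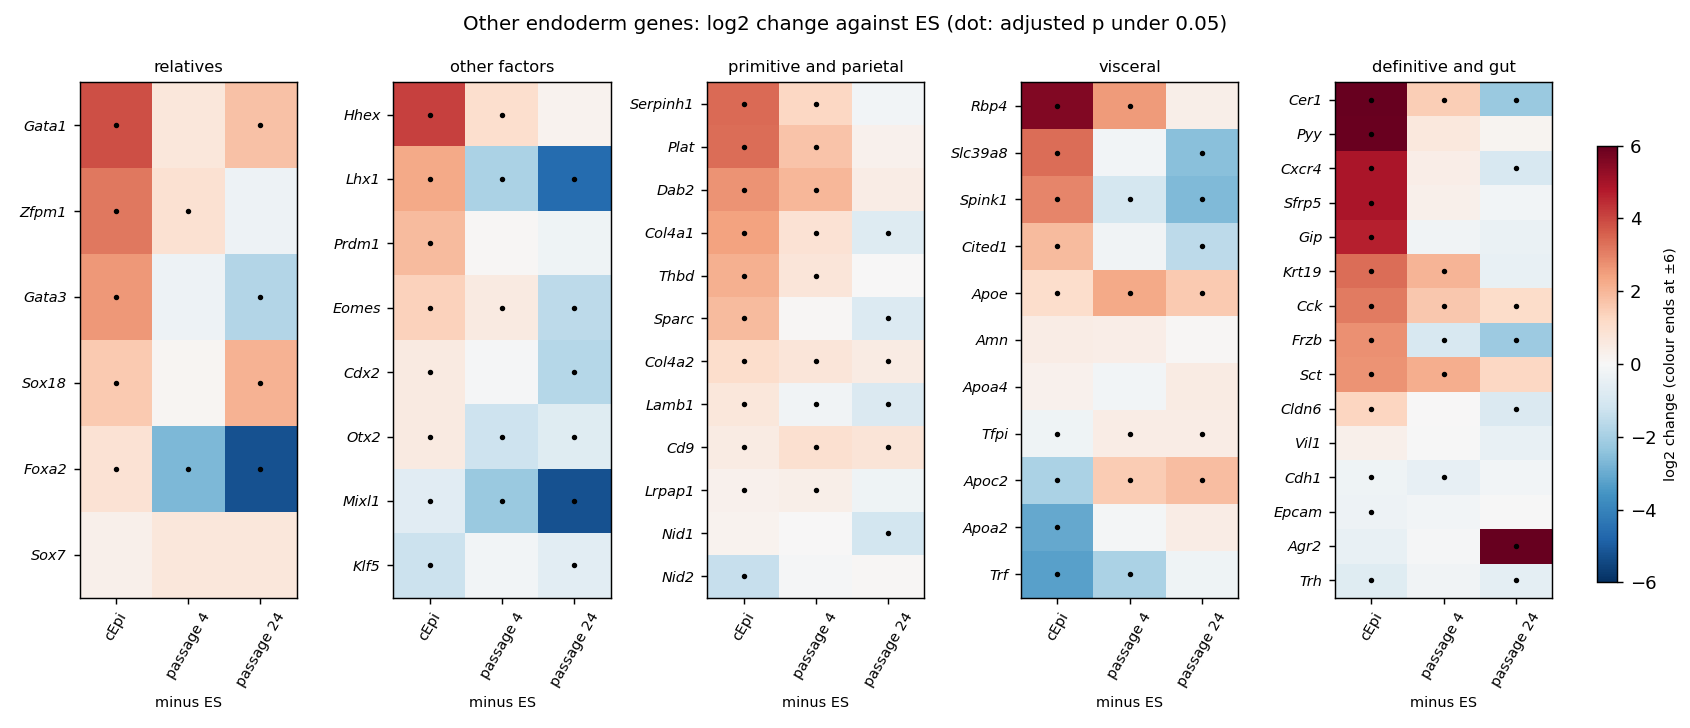
Log2 change against ES (colour, ending at 6 in either direction) of the tested genes of 5 endoderm lists (rows) in cEpi, rEpiES passage 4 and rEpiES passage 24 (columns), with a dot for an adjusted p under 0.05. The cEpi column is red for most genes, Foxa2, Lhx1 and Mixl1 are blue at passage 24, and Agr2 is red at passage 24 only.

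Of 17 tested genes of Nodal and FGF signalling, which direct endoderm formation, 7 were higher, 5 lower and 5 not called in cEpi against ES, shares near the 36.6% higher and 29.6% lower over all tested probes, and their median change was that of all probes, 0.15. With no further normalisation 11 were higher and 3 lower. Lefty2, a Nodal antagonist, rose by 1.70 ± 0.08 and Fgf5, a ligand gene of the post-implantation epiblast, by 1.55 ± 0.06, whereas Gdf3, a Nodal-related ligand, was lower (-3.80 ± 0.06).

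The same motifs were looked for in the RefSeq windows of the endoderm-list genes that were called higher in cEpi. Windows of Rbp4 (chr19:38125322-38125571) and Sfrp5 (chr19:42202253-42202502), both on the minus strand, are shown with a forkhead and a GATA match in capitals. They were chosen after their values were seen, as strongly raised genes with a match.
Rbp4: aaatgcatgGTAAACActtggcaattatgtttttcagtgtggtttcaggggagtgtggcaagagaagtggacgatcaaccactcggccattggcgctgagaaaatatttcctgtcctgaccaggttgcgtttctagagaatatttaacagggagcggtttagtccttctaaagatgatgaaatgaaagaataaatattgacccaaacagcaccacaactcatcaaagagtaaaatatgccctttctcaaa
Sfrp5: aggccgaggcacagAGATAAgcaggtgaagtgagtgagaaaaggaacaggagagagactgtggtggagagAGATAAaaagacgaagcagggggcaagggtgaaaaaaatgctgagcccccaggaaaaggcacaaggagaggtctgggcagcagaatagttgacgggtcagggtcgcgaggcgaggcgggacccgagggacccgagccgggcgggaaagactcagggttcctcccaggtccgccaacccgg

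Rbp4 has a forkhead match at -241 in this window and none in the window of its other annotated start, and Sfrp5 has 2 GATA matches, at -236 and -180. Of 36 endoderm-list genes called higher in cEpi, 31 had a window, 44 windows in all. A forkhead match was in 4 of them (9.09%, in Rbp4, Cck, Prdm1 and Cdx2), against 3.17% of all 32851 windows of this length. A GATA match was in 10 (22.7%, against 26.5% of all) and a SOX match in 4 (9.09%, against 27.7% of all).

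The summed levels of the fibroblast, trophoblast, and cardiac and lateral mesoderm lists were highest in cEpi like that of the endoderm factors. The endothelial sum was lowest there. Of 21 tested feeder fibroblast genes, 19 were higher and 2 not called in cEpi against ES (median change 2.24), led by Bgn (5.04 ± 0.09), Thy1 (at least 26-fold) and Postn (3.63 ± 0.13), which encode a matrix proteoglycan, a surface protein and a matrix protein. Their summed normalised level ran between 3110000 and 3220000 in cEpi, 1020000 and 1040000 at passage 4, 550000 and 576000 at passage 24, and 763000 and 1080000 in ES. None of the 21 was undetected on every array. Of the same genes, 18 were lower at passage 4 and 19 at passage 24 against cEpi, and 11 were lower and 4 higher at passage 24 against ES (4 lower and 4 higher without further normalisation). The summed level of the 4 endoderm factors ran between 96700 and 107000 in cEpi, 4830 and 5780 at passage 4, 2100 and 2610 at passage 24, and 6420 and 8390 in ES. A sum follows its brightest probes, and in cEpi Sox17 weighs most (mean 16.19, beside 14.21 for Gata6, 12.04 for Gata4 and 11.46 for Foxa1). The part of fibroblasts in the endoderm factor results was not tested.

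Of 12 trophoblast genes, which share Gata3, Eomes and Cdx2 with the lists above, 7 were higher and 3 lower in cEpi against ES (median change 1.21). The 3 lower, Tfap2c, Esx1 and Bmp4, had their lowest group means in cEpi (11.64, 9.51 and 13.23). The calls of Tfap2c and Bmp4 were lost without further normalisation, and that of Bmp4 with median scaling. The keratin genes Krt8 and Krt18, which many epithelia including endoderm express, rose by 2.33 ± 0.10 and 2.27 ± 0.09. Their means in cEpi were 18.92 and 17.82, and they weigh most in the cEpi sum of this list. The summed trophoblast level lay between 769000 and 894000 in cEpi, 351000 and 387000 at passage 4, 83900 and 90400 at passage 24, and 197000 and 203000 in ES. All 12 were detected on some array, and their part in the result was not tested.

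Gata4 and Gata6 also serve in heart and Sox17 in vessels. Of 12 tested cardiac and lateral mesoderm genes, 6 were higher, 1 lower and 5 not called in cEpi against ES (median change 0.89), led by the troponin gene Tnnc1 (at least 7.84-fold, 3.36 ± 0.78, 1 of 3 ES arrays detected). Under both other scalings 9 were higher, 0 lower and 3 not called, with the call of Bmp4 lost. Tbx5, Mef2c and Foxf1 were detected on no array. Their sum ran between 76300 and 78100 in cEpi, 63700 and 65900 at passage 4, 57300 and 61000 at passage 24, and 54800 and 66100 in ES. Of 7 tested endothelial genes, 4 were lower and 3 not called in cEpi against ES, and 5 were higher at passage 24 against cEpi, led by Pecam1 (3.83 ± 0.46), which pluripotent mouse cells also express. The endothelial sum lay between 9620 and 10900 in cEpi, 22100 and 24600 at passage 4, 30000 and 33800 at passage 24, and 15200 and 20500 in ES, and Erg was detected on no array.

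The label of cEpi as epiblast and of the other groups as ES or ES-like was set against 14 pluripotency genes. All 14 were lower in cEpi than in ES (median change -2.12). Nr5a2 (-5.49 ± 0.25), Dppa3 (-5.27 ± 0.14) and Dppa2 (mean 11.49 in cEpi and 16.21 in ES) led, with Zfp42 next (-4.10 ± 0.13). However, the other probe of Klf2 was higher (2.43 ± 0.38). The Klf2 probe counted here turned higher with median scaling (0.41) and without further normalisation (0.54). With median scaling 12 were lower and 1 was higher, with the call of Tbx3 lost, and without further normalisation 11 were lower and 1 was higher, with the calls of Tbx3 and of Pou5f1, the Oct4 gene of the reporter, lost. Their sum lay between 482000 and 497000 in cEpi, 3190000 and 3310000 at passage 4, 3180000 and 3360000 at passage 24, and 2320000 and 2470000 in ES. Lower did not mean absent, as Pou5f1 and Sox2 were detected on all 3 cEpi arrays, with means of 17.65 and 15.76. Outside this list, Fgf5 and Otx2 had their highest means in cEpi (17.40 and 17.64, beside 15.85 and 17.10 in ES).

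**Figure D4:**
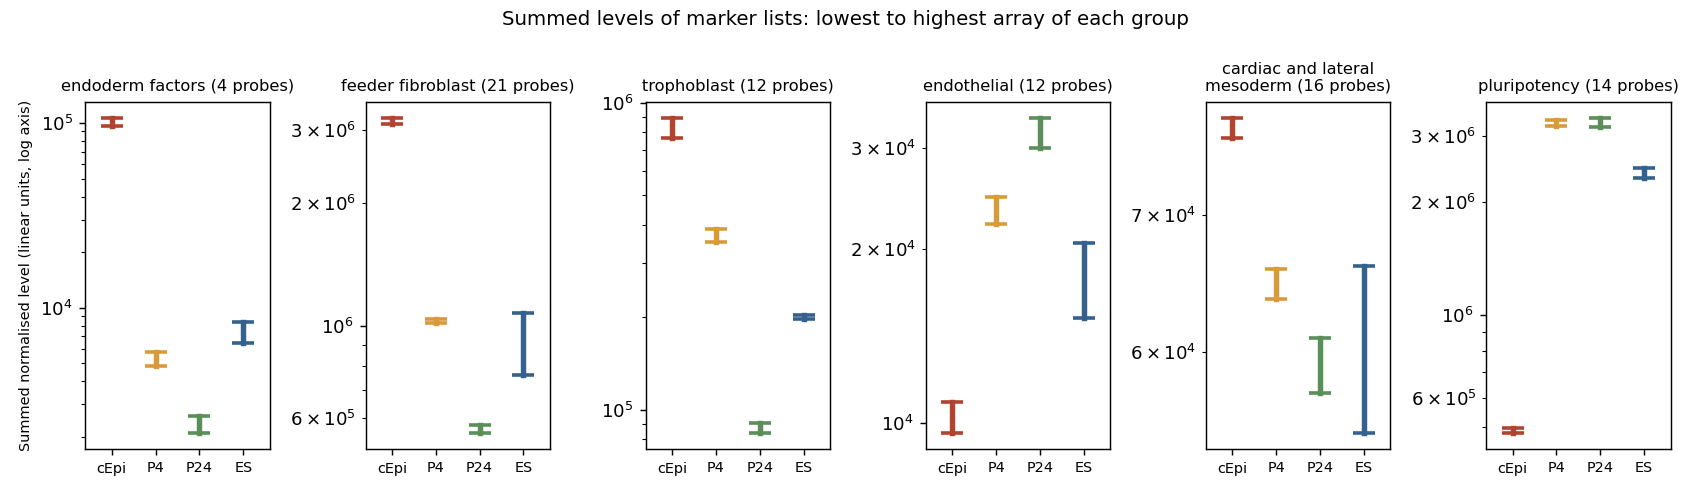
Summed normalised level (linear units, log axis, each panel with its own range) of the probes of 6 gene lists; bars run from the lowest to the highest of the 3 arrays of a group. The endoderm factors and the feeder fibroblast, trophoblast, and cardiac and lateral mesoderm genes have their highest sums in cEpi, with no overlap with other groups. The pluripotency and endothelial genes have their lowest sums there.

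Between 15726 and 16537 probes were detected on the cEpi arrays, 14329 to 15034 at passage 4, 14422 to 15637 at passage 24 and 12061 to 13827 in ES, and the median SD over probes was 0.09, 0.10, 0.11 and 0.24 in these groups. No 2 arrays held the same values. Quantile normalisation gives every array the same distribution of values. With median scaling, the median change in cEpi against ES moved by 0.54, and without further normalisation by 0.67. The share of calls that were higher then was 82.3% and 86.0%, beside 55.3%. Beside these shifts, the change of Sox17 was 5.25 and 5.38 under the same settings and that of Gata6 3.10 and 3.23. Against cEpi, without further normalisation, Foxa1 was at -3.57 at passage 4 and -3.36 at passage 24, and Gata4 at -3.07 and -5.03. The share higher at passage 4 against cEpi was 31.5% and 20.1%, beside 50.1%, and at passage 24 against cEpi 39.0% and 29.7%, beside 50.3%. Against ES it was 80.5% and 76.7% at passage 4, beside 52.9%, and 75.9% and 73.1% at passage 24, beside 51.4%. The files of cEpi and passage 4 share one column layout and those of ES and passage 24 another, so passage 24 against cEpi, passage 4 against ES and passage 24 against passage 4 also lie across layouts.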

How the data were processed

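Mouse cells were measured on 12 Applied Biosystems AB1700 1-colour arrays hybridised, per the labels, with digoxigenin-labelled cRNA made from Trizol-extracted total RNA. The deposited files hold per probe a linear signal intensity with no stated normalisation and values that the authors had put through quantile normalisation, per the file headers, which lie on a log2 scale. They also hold a deposited signal-to-noise score, used for detection at 3 or more, and a quality code of unstated meaning, used only in the alternative that drops values with a code above 1000. In 6 files the headers of score and code are exchanged against their contents, so columns were read by contents. The scanner software is not given in the sources used here. The number of arrays limits the precision.

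Of 33012 probes, 14411 had 1 gene symbol in the platform annotation, 247 several and 18354 none; 14402 were matched to the RefSeq gene table by gene ID, and no symbol changed. The test took the 15235 probes that reached the detection score on every array of some group, and ran with limma 3.58.1 in R 4.3.3, 1 fit of 4 group means, 6 comparisons, two-sided, Benjamini-Hochberg adjusted. The code was tested on simulated data. A gene with several probes was represented by the one with the highest mean. List genes (162 of 186 named on the array) were named by the largest changes in their list, the relatives of the members all by name, and the nearest genes by Pearson's r. The members and lists were chosen with earlier results of these data known. Alternatives covered normalisation, the detection filter, the groups fitted, a replicate block, the quality code, array weights, the variance model and each left-out array. Same-numbered arrays did not deviate together, with r between -0.03 and 0.04, so the numbers were not taken as pairs.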

Additional observations from a re-analysis of the deposited data

Results flagged for a closer look

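The changes of Sox17 relative to cEpi differed between the 2 rEpiES passages, with the log2 change at passage 24 minus that at passage 4 at -2.87 (adjusted p = 0.000222, limma, lower on 3 of 3 passage 24 arrays than on any passage 4 array). The same difference for Gata4 was -1.78 (adjusted p = 0.0044, limma, lower on 3 of 3 arrays, none of the passage 24 arrays detected). Since cEpi drops out of such a difference, both are the passage 24 against passage 4 changes given above, not further tests. Both differences lie across the file layouts, which cannot be told apart from the passages there.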

How the results depend on the processing

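All 4 factors kept their direction and call in cEpi against ES and at both passages against cEpi under each of the 20 alternatives that tested all 4, with Sox17 between 4.47 and 5.38 and between -8.27 and -7.29 for cEpi against ES and passage 24 against cEpi. With detection required on all 12 arrays only Gata6 was tested, which left 1 factor called in each comparison and 0 between the passages (Gata6, limma, adjusted p = 0.143). In passage 4 against ES, 1 factor was called instead of 2 without further normalisation and with array quality weights, and 1 with the 2 groups fitted alone, where Gata4 was not tested. Gata4 was at 1.01 to 1.48 over the 19 alternatives that tested it there (adjusted p = 0.000814 to 0.0796). Between the passages 1 was called with the 2 groups fitted alone, where Gata4 was not tested. With 1 array left out, 4 factors were called in each comparison of or with cEpi, 2 at passage 4 against ES, 2 to 3 at passage 24 against ES and 2 between the passages. Probes called then ranged between 9165 and 10553 for cEpi against ES, 7587 and 9422 for passage 4 and 9252 and 10694 for passage 24 against cEpi, 7504 and 9075 for passage 4 and 8221 and 9619 for passage 24 against ES, and 4401 and 6655 between the passages. The last count was 5505, 2912 without further normalisation and 3498 with median scaling. With the replicate number as a block, 9927 probes were called in cEpi against ES instead of 10091, and the block changed no call of a factor. Sfrp5 at passage 24 against ES was between -0.505 and 0.52 with 1 array left out, the upper value without ES replicate 3 (adjusted p = 0.0386), and was not called otherwise (-0.15). Klf2 in cEpi against ES turned higher, to 0.54 without further normalisation and 0.41 with median scaling. For named list genes, 5349 values over these alternatives kept direction and call, 58 that were not called changed sign without a call, 137 lost and 59 gained a call, and the cause was not tested. Probes below the detection score limit what can be said of Foxa1 outside cEpi and of Gata4 in ES and at passage 24.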

Other observations

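Agr2, a secretory protein disulfide isomerase gene of gut and other mucous epithelia, went against the endoderm factors. It averaged 15.70 ± 0.04 in rEpiES at passage 24 (SD, n = 3, detected on all 3 arrays) and was detected on no array of cEpi, passage 4 or ES, with group means of 8.41, 8.82 and 8.88. It was at least 113-fold higher at passage 24 than in ES (adjusted p = 2.42e-08, limma) and at least 157-fold higher than in cEpi (adjusted p = 5.78e-09).

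Sox18, the relative of Sox17, was detected on all 3 passage 24 arrays and on 2 of 3 cEpi arrays, and was at least 4.07-fold higher at passage 24 than in ES (adjusted p = 0.00323, limma), in the comparison in which Sox17 fell. The apolipoprotein gene Apoc2, among the visceral endoderm products, was at least 13.3-fold higher at passage 24 than in cEpi (3.73 ± 0.45, adjusted p = 4.16e-05, 2 of 3 cEpi arrays detected), where Apoa2 was at least 11.3-fold higher (3.50 ± 0.21, adjusted p = 2.48e-07, 1 of 3 detected). Actc1, a cardiac actin gene, was at least 19.1-fold lower at passage 24 than in ES (adjusted p = 5.73e-08).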
